A study of Mus musculus with 24 samples.

Results

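The response of Cop1-depleted mouse embryonic fibroblasts to Dexa was measured by mRNA sequencing. It rests on 6 of the 24 libraries of the study: 3 libraries labelled siCop1 DMSO with Dexa and 3 labelled siCop1 DMSO without Dexa, chosen by these labels alone. All 6 come from wild type fibroblasts (MEFs), carry siCop1, taken as a small interfering RNA against Cop1, and received DMSO, the vehicle control of the compound KL001, so Dexa is the labelled difference between them. The other libraries cross siCTRL or siCop1, DMSO or KL001, and Dexa or none, with 3 libraries in each of the 8 groups. Beside the siCop1 response stand 2 others that share no library with it in their own contrasts: the 3 siCTRL DMSO libraries with Dexa against 3 without, and the 3 siCop1 KL001 libraries with Dexa against 3 without. The sources used here do not give the age of the embryos, the doses, the exposure times or the sequence of either siRNA. Nothing in the labels says that the 3 libraries of a group came from separate cultures. The p-values thus measure only the spread between libraries within groups, estimated over all 8 groups, and this spread may be technical.

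Dexa, spelled here as in the labels, is a common abbreviation of dexamethasone, a synthetic glucocorticoid. Glucocorticoids bind the glucocorticoid receptor (Nr3c1), which is held by heat shock chaperones in the cytoplasm, enters the nucleus with its ligand, switches on genes near its binding sites and represses many genes driven by NF-kB and AP-1. In fibroblasts this programme is known for feedback regulators, metabolic enzymes and lower cytokine expression. Cop1, listed in the count table under its older symbol Rfwd2, presents proteins such as Jun and the ETS factors Etv1, Etv4 and Etv5 to a cullin 4 ubiquitin ligase for degradation.

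The 6 libraries held 24441711 to 26451125 counts, and all 24 held 21409988 to 27875023. Values are CPM, counts scaled to a common library total after TMM normalization. At these totals a value well under 1 CPM rests on few reads. Pairs of libraries of the same group differed by more than sampling noise (chi-square per degree of freedom 1.6 to 2.4 over the 6 libraries), so none was counted as a copy of another. Fibroblast markers summed to 41907 to 45827 CPM in the 6 libraries, with Col1a1, Col1a2, Col3a1 and Vim at the top, whereas Dcn was at 2.63 to 3.39 CPM and Lum at 0.432 to 0.855 CPM. Markers of heart muscle summed to 3.18 to 5.64 CPM and those of macrophages to 11.3 to 16.3 CPM. Cldn5, Sox10, Adipoq, Cidec and Myl7, markers of endothelium, neural crest derivatives, fat cells and atrial muscle, had 0 counts in all 6 libraries, which allows up to 3 counts over the 6. Other markers in these lists were present. The endothelial marker Flt1 was at 14.2 to 15.1 CPM without Dexa and 21.6 to 23.9 CPM with it (log2 0.60, called). Tek, also endothelial, was at 0.410 to 0.685 CPM without Dexa and 0.157 to 0.405 CPM with it (log2 -1.07, called). Of the 5 endothelial markers tested 1 was higher, 1 lower and 3 not called. The neural markers Tubb3 and Stmn2 were at 8.46 to 11.1 and 7.16 to 9.45 CPM, and the fat cell marker Pparg at 7.38 to 9.68 CPM. Of the 9 neural markers 6 had too few counts to test, as had 5 of the 8 fat cell markers.

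Replicate 1 of siCop1 DMSO with Dexa stood apart in markers of squamous epithelium. Their sum was 103 CPM in that library against 26.7 and 27.3 CPM in the other Dexa libraries and 17.1 to 25.7 CPM without Dexa. Krt13 was at 30.6 CPM and Krt4 at 23.7 CPM there. Of the 12 markers 11 were tested and 6 passed the threshold as higher with Dexa. Without that library 1 of 11 passed, Trp63, which was at 4.47 to 5.24 CPM without Dexa and 7.06 to 8.82 CPM with it. Airway epithelium markers summed to 9.43 to 23.1 CPM without Dexa and 20.05 to 21.3 CPM with it. Fat cell markers summed to 34.9 to 37.2 CPM without Dexa and 84.6 to 94.0 CPM with it, through Fabp4, a fatty acid binding protein, at 20.6 to 22.4 and 68.5 to 78.6 CPM. In bulk RNA a change in the number of cells of a type and a change in RNA per cell cannot be told apart. In the siCTRL DMSO libraries, used only for the comparison of the siRNAs, heart muscle markers were higher and uneven, at 38.2 to 115 CPM without Dexa and 7.78, 165 and 6.74 CPM with it, and their part in that comparison was not tested.

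The siRNA target was low in all 6 libraries. Rfwd2 was at 4.66, 4.78 and 5.0 CPM without Dexa and at 4.41, 4.47 and 4.86 CPM with it, and these ranges overlapped. In the siCTRL DMSO libraries it was at 28.4 ± 1.45 CPM without and 25.6 ± 0.712 CPM with Dexa (SD, n = 3 each). The log2 change of Rfwd2 with Dexa after siCop1 was -0.07 (SE 0.0994, edgeR adjusted p = 0.719).

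Of 14772 genes tested, 3496 (23.7%) were called different between the siCop1 DMSO libraries with and without Dexa, where called means a Benjamini-Hochberg adjusted p below 0.05 in edgeR's quasi-likelihood test. Higher with Dexa were 1778 genes (12%) and lower were 1718 (11.6%). Most of these differences were small, with a median absolute log2 change of 0.284 over the called genes. At least 2-fold changes were called for 408 genes (2.76%), of which 328 were higher (2.22%) and 80 lower (0.542%). Over the 12462 genes with a mean of at least 1 CPM, 252 changed at least 2-fold. The imbalance grew with size: a log2 change of at least 2 was called for 107 higher and 3 lower genes, and one of at least 4 for 17 higher and 0 lower genes. The groups did not overlap for 6155 of the 14772 genes (41.7%), among them 3445 of the 3496 called. Without the library high in squamous markers 3017 genes were called, 2909 of them among the 3496.

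**Figure D1:**
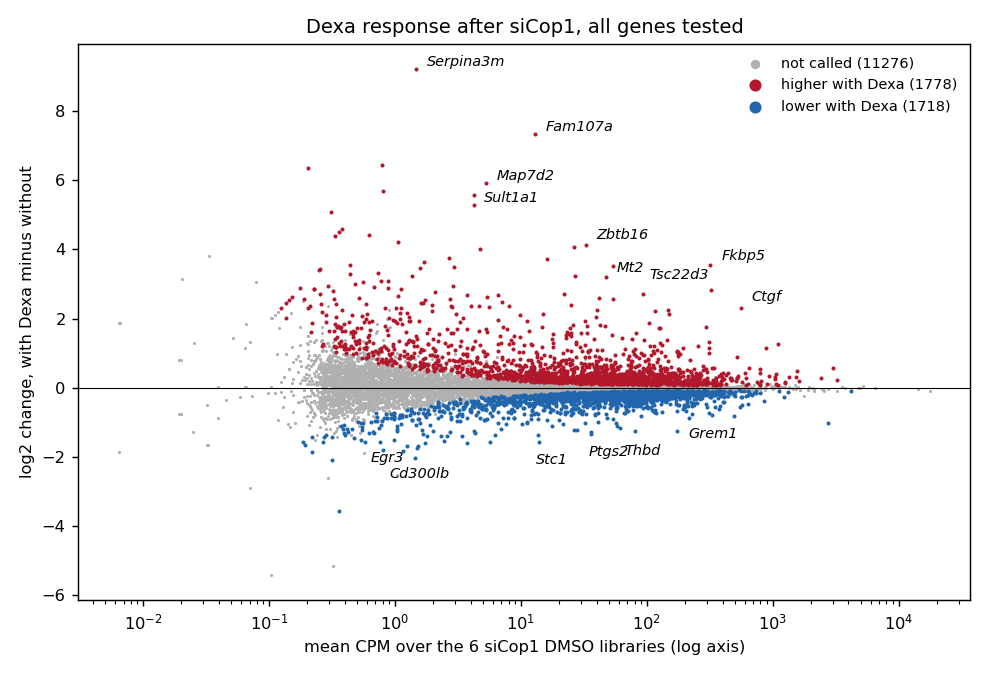
Each point is 1 of the 14772 genes tested, apart from 5 with 0 counts in the 6 libraries; the x axis is the mean level in CPM over the 6 siCop1 DMSO libraries (log axis) and the y axis the log2 change with Dexa. Called genes are red (1778 higher) or blue (1718 lower), and the largest increases, such as Fam107a, reach much further from 0 than the largest decreases, such as Cd300lb; the fitted value of Serpina3m, at 0 counts without Dexa, is no measure of its size.

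Most of the genes with the largest increases were close to 0 CPM without Dexa. Fam107a, a stress-responsive gene whose protein binds actin, was at 0.0745, 0.0777 and 0.322 CPM without Dexa, and at 27.0, 24.4 and 25.9 CPM with it. All 3 Dexa libraries lay far above the others, and the log2 change was 7.33 (SE 0.174, edgeR adjusted p = 5.16e-24). Serpina3m, a serine protease inhibitor gene, had 0 counts in the 3 libraries without Dexa and 2.59, 3.55 and 2.71 CPM with it, at least 76.0-fold higher than a floor set at 3 counts in the group. Map7d2, a microtubule-associated protein gene, rose by 5.91 on the log2 scale, the dipeptidase gene Dpep1 by 5.58, the sulfotransferase gene Sult1a1 by 5.28 and the steroid sulfate transporter gene Slc10a6 by 4.22. Aldh1a7, an aldehyde dehydrogenase gene, went from 2.95 ± 0.803 to 49.5 ± 2.05 CPM (SD, n = 3, log2 4.06). The sources used here do not say how reads shared between close copies were counted, so the values of Serpina3m and Aldh1a7, which have such copies, are uncertain, as are those of the Mt, Ifit and Slfn genes given further on.

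The largest decreases were smaller. Cd300lb, an immunoglobulin-type receptor gene, was at 2.27, 2.22 and 2.46 CPM without Dexa and 0.729, 0.501 and 0.471 CPM with it, a log2 change of -2.02 (SE 0.303, edgeR adjusted p = 4.34e-06). The groups did not overlap. Stc1, which encodes the secreted hormone stanniocalcin, was at 21.0 ± 1.56 CPM without and 7.02 ± 0.661 CPM with Dexa (SD, n = 3), a log2 change of -1.58. Sema7a, a membrane-anchored semaphorin gene, fell by 1.6 and Gdf6, a ligand of the bone morphogenetic protein family, by 1.59 on the log2 scale. The others among the 8 largest were Ifit3b, Egr3, Il7 and Egr2, described below with their gene groups. Among abundant genes, chosen after their values were seen, Thbs1, the matrix glycoprotein thrombospondin, was at 3703, 3572 and 3709 CPM without Dexa and 1829, 1804 and 1817 CPM with it (log2 -1.01).

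Regulators known to be induced by glucocorticoids were mostly higher, and 90% of members were called, against 23.7% of all genes. Of 30 listed members, all tested, 24 were higher, 3 lower and 3 not called, and their median log2 change was 0.82, against 0.00196 over all 14772 genes. Fkbp5, a co-chaperone that lowers the affinity of the receptor for its hormone, was at 52.3, 50.0 and 50.1 CPM without Dexa and 602, 584 and 584 CPM with it. The groups were more than 10-fold apart, with little spread inside each, and the log2 change was 3.54 (SE 0.0345, edgeR adjusted p = 1.67e-33). Tsc22d3, which encodes the anti-inflammatory leucine zipper protein GILZ, was at 79.6, 77.8 and 81.3 CPM without and 574, 570.0 and 564 CPM with Dexa (log2 2.84). Zbtb16, a zinc finger transcription factor gene, was at 4.10, 2.92 and 3.59 CPM without and 64.0, 61.9 and 60.7 CPM with Dexa (log2 4.13). In each of these genes every Dexa library lay above every library without it. Further members of this and the following lists that are given by a log2 change alone are examples chosen after their values were seen.

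Promoter sequences are shown for genes of this group to set their start regions beside these values. Each is a window of 300 bases around an annotated start from RefSeq on GRCm38.p6, the build that the submitters' processing notes also name, printed 5′ to 3′ on the gene's strand. Of the 5 called members with the largest increases that have an entry, Fam107a, Fkbp5 and Klf15 are printed because their windows hold a searched motif, and the windows of Hif3a and Tsc22d3 hold none of those marked. Sgk1 was added after its window was seen. Capitals mark matches on either strand to the full palindromic glucocorticoid response element (AGAACA and TGTTCT with any 3 bases between them), to its core ACANNNTGT, which lies inside it, and to CACGTG, the E-box bound by clock and other basic helix-loop-helix factors. A match is a description of letters and not a measured binding site. The printed windows are chr14:8309730-8310029 on the minus strand for Fam107a (start 2 of 3), chr17:28486100-28486399 on the minus strand for Fkbp5, chr6:90462326-90462625 on the plus strand for Klf15 and chr10:21993640-21993939 on the plus strand for Sgk1 (start 5 of 6).
Fam107a: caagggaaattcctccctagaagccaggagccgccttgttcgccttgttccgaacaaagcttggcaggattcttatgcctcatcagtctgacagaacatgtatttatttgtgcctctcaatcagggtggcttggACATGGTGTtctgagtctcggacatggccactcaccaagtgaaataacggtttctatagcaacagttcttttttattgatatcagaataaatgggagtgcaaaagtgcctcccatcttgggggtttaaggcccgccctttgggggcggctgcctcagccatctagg
Fkbp5: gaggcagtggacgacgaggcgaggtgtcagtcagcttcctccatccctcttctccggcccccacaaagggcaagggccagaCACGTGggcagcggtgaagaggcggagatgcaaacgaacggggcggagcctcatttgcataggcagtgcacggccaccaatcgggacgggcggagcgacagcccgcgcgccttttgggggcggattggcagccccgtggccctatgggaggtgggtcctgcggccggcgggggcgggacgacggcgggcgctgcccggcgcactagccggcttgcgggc
Klf15: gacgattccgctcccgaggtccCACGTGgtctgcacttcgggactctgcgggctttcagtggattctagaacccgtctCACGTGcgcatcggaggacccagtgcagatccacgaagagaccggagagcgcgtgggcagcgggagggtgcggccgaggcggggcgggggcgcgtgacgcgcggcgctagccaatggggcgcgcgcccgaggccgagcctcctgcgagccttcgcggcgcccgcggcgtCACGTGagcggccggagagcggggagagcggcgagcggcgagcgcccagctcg
Sgk1: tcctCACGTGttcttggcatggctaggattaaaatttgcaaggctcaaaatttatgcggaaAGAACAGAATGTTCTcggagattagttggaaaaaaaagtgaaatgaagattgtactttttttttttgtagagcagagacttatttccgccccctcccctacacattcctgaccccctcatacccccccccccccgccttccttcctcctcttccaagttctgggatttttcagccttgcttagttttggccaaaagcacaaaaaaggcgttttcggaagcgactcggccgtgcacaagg

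The Fam107a window holds 1 core match, beginning at -116 from the annotated start. Fkbp5 has 1 CACGTG match at -169 and Klf15 has 3, and neither window holds the core. The Sgk1 window holds the full motif as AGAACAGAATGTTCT at -189, with the core inside it, and a CACGTG match at -246. The full motif occurred in 3 of all 32851 promoter windows (0.00913%), and 1 of these 3 belongs to a gene at least 2-fold higher with Dexa, Sgk1. The core ACANNNTGT was present in 6.85% of all windows. Its share was 10.9% (32 of 293 windows) for genes at least 2-fold higher with Dexa, 3.39% (2 of 59) for genes at least 2-fold lower, 4.06% for genes called with a smaller change and 4.42% for genes not called. CACGTG was present in 7.15% of all windows and 10.6% of those of genes at least 2-fold higher. Its share was 8.475% for genes at least 2-fold lower, 8.89% for those called with a smaller change and 9.995% for those not called. The 6 bases TGTTCT, part of the full motif, were present in 19.0% of all windows. In the same 4 classes of genes their shares were 15.7%, 11.9%, 10.7% and 12.9%. These shares are descriptions without a test.

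Most other members of the group were higher with Dexa as well, at low or high levels. Sgk1, a serum and glucocorticoid regulated kinase, was at 137, 135 and 132 CPM without and 454, 463 and 457 CPM with Dexa (log2 1.77). Klf15, a Krüppel-like transcription factor linked to amino acid and glucose metabolism, was at 1.6, 1.24 and 1.69 CPM without and 8.86, 7.56 and 6.87 CPM with Dexa (log2 2.35). The groups stayed apart in both genes. Cebpd, a C/EBP transcription factor gene, went from 8.07 ± 0.850 to 42.3 ± 0.409 CPM (SD, n = 3). Errfi1, an inhibitor of the epidermal growth factor receptor, went from 51.2 ± 0.789 to 244 ± 7.40 CPM (SD, n = 3, log2 2.25). Hif3a, a hypoxia-inducible factor subunit, was detected in 1 of the 3 libraries without Dexa and was at 1.70, 1.39 and 1.57 CPM with it. Rasd1, a Ras-related gene, rose by 2.87 on the log2 scale. Nfkbia, the inhibitor of NF-kB, rose by 0.65 and Dusp1, a phosphatase that inactivates MAP kinases, by 0.67. The 3 lower members were Fzd4 (-0.39), Klf4 (-0.37) and Gadd45a (-0.29).

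**Figure D2:**
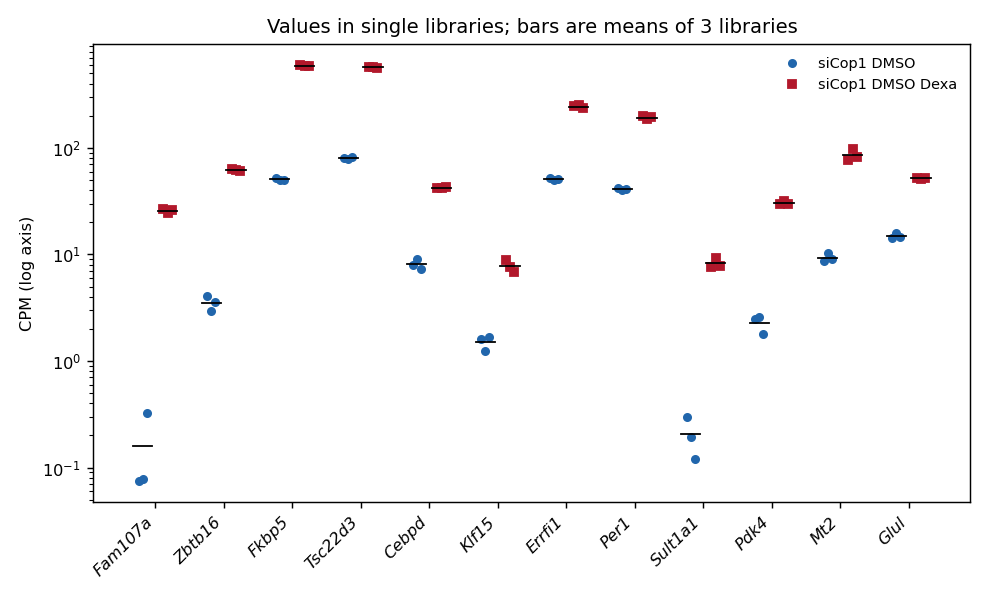
CPM on a log axis for 12 genes of the regulator and metabolism groups in single libraries, 3 siCop1 DMSO libraries without Dexa (blue circles) and 3 with Dexa (red squares), with means as black bars. In each of the 12 genes the 3 libraries with Dexa lie above the 3 without, from Fam107a (0.0745 to 0.322 against 24.4 to 27.0 CPM) to Fkbp5 (50.0 to 52.3 against 584 to 602 CPM).

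Genes of the receptor and its chaperones were called at a share near that of all genes (21.1% against 23.7%). Of 21 members 19 were tested, 3 were higher, 1 was lower and 15 were not called, with a median log2 change of -0.02. Nr3c1, the receptor itself, was at 93.9, 98.7 and 101 CPM without Dexa and 68.7, 69.3 and 67.9 CPM with it, so the groups did not overlap. Its log2 change was -0.51 (SE 0.0777, edgeR adjusted p = 2.82e-05). Hsd11b2, the enzyme that inactivates natural glucocorticoids, rose from 4.71 ± 0.836 to 11.3 ± 0.777 CPM (SD, n = 3, log2 1.27). The chaperone genes Hsp90ab1 and Hspa8 were not called (log2 -0.04 and 0.12), while Hsph1 and the co-chaperone gene Bag1 rose by 0.14 and 0.13.

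Metabolic genes linked to glucocorticoids held large increases and some decreases, and 70.4% of tested members were called, against 23.7% of all genes. Of 30 members 27 were tested, 13 were higher, 6 lower and 8 not called, with a median log2 change of 0.14. Pdk4, a kinase that restrains pyruvate oxidation, was at 2.46, 2.57 and 1.77 CPM without Dexa and 29.7, 31.6 and 29.5 CPM with it (log2 3.73). Mt2, a metal-binding metallothionein gene, was at 8.72, 10.2 and 8.99 CPM without and 76.9, 97.2 and 82.7 CPM with Dexa (log2 3.20), and its relative Mt1 rose by 1.73. Sult1a1 was at 0.121 to 0.298 CPM without and 7.61 to 9.25 CPM with Dexa. Glul, which encodes glutamine synthetase, was at 14.4, 16.1 and 14.5 CPM without and 51.9, 51.0 and 52.5 CPM with Dexa (log2 1.79). Lcn2, an iron carrier of the acute phase, was at 0.389 to 1.09 CPM without and 3.74 to 6.43 CPM with Dexa (log2 2.94, SE 0.449). Lower members were Lpl, the lipoprotein lipase gene (-0.79), Angptl4, an inhibitor of that enzyme (-0.50), Slc7a11 and Slc2a3 (both -0.46), Slc38a2 (-0.16) and Asns (-0.10).

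Cytokine and chemokine genes driven by NF-kB were mostly lower, and 64.3% of tested members were called, against 23.7% of all genes. Of 40 members 28 were tested, 17 were lower, 1 was higher and 10 were not called, with a median log2 change of -0.47. Il7, the lymphocyte growth factor interleukin 7, was at 2.38, 2.29 and 2.26 CPM without Dexa and 0.850, 0.578 and 0.706 CPM with it (log2 -1.70, edgeR adjusted p = 6.17e-07). Ptgs2, the inducible cyclooxygenase of prostaglandin synthesis, was at 37.4, 37.9 and 35.7 CPM without and 15.7, 16 and 15.5 CPM with Dexa (log2 -1.23). The groups did not overlap in either gene. The monocyte attractant gene Ccl2 fell by 0.98, the membrane-bound chemokine gene Cx3cl1 by 0.89 and the abundant chemokine gene Cxcl12 from 649 ± 14 to 445 ± 13.1 CPM (SD, n = 3). The higher member was Il34, a ligand of the macrophage receptor Csf1r (0.50). Il6, Tnf and Il1b were among the 12 members with too few counts to test.

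Interferon-stimulated genes were called in 36.7% of tested members, against 23.7% of all genes, and in both directions. Of 36 members 30 were tested, 4 were higher, 7 lower and 19 not called, with a median log2 change of -0.17. Ifit3b was at 1.6, 2.10 and 1.69 CPM without and 0.648, 0.463 and 0.392 CPM with Dexa (log2 -1.84), and its close copy Ifit3 fell by 0.61. Slfn2 fell by 0.74. Xaf1 was at 1.68 ± 0.228 CPM without and 1.03 ± 0.192 CPM with Dexa (SD, n = 3, edgeR adjusted p = 0.0261), but lost its call without replicate 2 of siCop1 DMSO (adjusted p = 0.124), without replicate 1 or 3 of siCop1 DMSO with Dexa (0.124 and 0.0696) and in DESeq2 (0.058). Stat2, a transcription factor of the interferon response, was higher, at 44.3 ± 1.31 CPM without and 64.5 ± 2.24 CPM with Dexa (SD, n = 3, log2 0.54).

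Immediate early and AP-1 genes, which growth factors switch on within minutes, were mostly lower. Called were 66.7% of tested members, against 23.7% of all genes. Of 26 members 24 were tested, 13 were lower, 3 higher and 8 not called, with a median log2 change of -0.22. Egr1 was at 79.6, 88.7 and 86.1 CPM without Dexa and 39.0, 38.1 and 36.1 CPM with it, without overlap (log2 -1.17, edgeR adjusted p = 3.45e-17). Its relatives Egr2 and Egr3, zinc finger factors at 1.71 to 2.26 and 1.89 to 2.65 CPM without Dexa, fell by 1.69 and 1.74 on the log2 scale. Nr4a2, an orphan nuclear receptor gene, fell by 0.70, Fos by 0.63 and Jun, a protein substrate of Cop1, by 0.23 in mRNA. The higher members were Zfp36, whose protein destabilises cytokine mRNAs (0.35), Klf2 (0.24) and Myc (0.12).

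Feedback regulators of the MAP kinase pathway and ETS factors were mostly lower too. Called were 87.5% of tested members, against 23.7% of all genes. Of 25 members 24 were tested, 16 were lower, 5 higher and 3 not called, with a median log2 change of -0.29. Dusp4, a phosphatase that inactivates ERK, was at 3.39, 3.77 and 2.90 CPM without and 1.5, 1.04 and 1.26 CPM with Dexa (log2 -1.41). Phlda1 was at 44.3, 42.5 and 43.0 CPM without and 21.8, 20.5 and 21.9 CPM with Dexa (log2 -1.02). The ETS factors Etv1, Etv4 and Etv5, named above as Cop1 substrates, fell. Etv5 went from 17.1 ± 0.627 to 10.2 ± 0.738 CPM (SD, n = 3, log2 -0.75), Etv1 fell by 0.69 and Etv4 by 0.23. Tgfa, a ligand of the epidermal growth factor receptor, rose from 7.38 ± 0.601 to 17.2 ± 1.02 CPM (SD, n = 3, log2 1.23), while the ligand genes Hbegf and Ereg fell by 0.73 and 0.35.

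Genes of the Cop1 ligase were called at a share near that of all genes (20% against 23.7%). All 15 members were tested, 3 were lower and 12 were not called, with a median log2 change of -0.04. The 3 lower members were the pseudokinase genes Trib1, Trib2 and Trib3, which recruit substrates to Cop1. Trib3 was at 103, 106 and 107 CPM without and 78.3, 80.5 and 81.8 CPM with Dexa (log2 -0.39), Trib2 fell by 0.37 and Trib1 by 0.28. The scaffold and adaptor genes Cul4a, Cul4b, Ddb1, Det1 and Dda1 were not called, with log2 changes of -0.01, 0.01, 0.03, -0.08 and -0.04.

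Clock genes changed in both directions, and 53.8% of members were called, against 23.7% of all genes. Of 26 members, all tested, 10 were higher, 4 lower and 12 not called, with a median log2 change of 0.03. Among the repressors of the core loop Per1 was at 41.9, 40.2 and 41.3 CPM without and 197, 185 and 193 CPM with Dexa (log2 2.22), and Per2 at 11.6, 11.8 and 12.1 against 33.9, 34.2 and 34.7 CPM (log2 1.54). The cryptochrome genes Cry1 and Cry2 rose by 0.57 and 0.44. Of the D-box factors Hlf rose by 1.71 and Nfil3 by 1.13, whereas Dbp was not called (-0.06). Lower were Npas2 (-0.96), which stands in for Clock, the nuclear receptor repressors Nr1d1 (-0.62) and Nr1d2 (-0.31), and the kinase gene Csnk1e (-0.14), and the activators Arntl and Clock were not called (-0.11 and 0.02).

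Collagen and elastic fibre genes were called in 41.7% of members, against 23.7% of all genes, and in both directions. Of 48 collagen and elastic fibre genes, all tested, 13 were higher, 7 lower and 28 not called, with a median log2 change of -0.01. Col1a1, the main chain of type I collagen, was at 18238 ± 416 CPM without and 17214 ± 755 CPM with Dexa (SD, n = 3) and was not called (log2 -0.08, edgeR adjusted p = 0.198). Postn, the matrix adhesion protein periostin, was at 527, 546 and 572 CPM without and 1173, 1254 and 1197 CPM with Dexa (log2 1.14). Loxl3, a collagen crosslinking enzyme gene, rose by 0.91, its relative Lox by 0.58 and Vcan, the proteoglycan versican, by 0.90. Has2, which makes hyaluronan, fell by 0.54 and Fbn2 by 0.50.

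Proteases of the matrix and their inhibitors held more lower than higher members. Called were 60% of tested members, against 23.7% of all genes. Of 37 members 35 were tested, 15 were lower, 6 higher and 14 not called, with a median log2 change of -0.09. Mmp13, an interstitial collagenase gene, was at 2.57, 2.60 and 2.58 CPM without and 1.13, 0.887 and 0.941 CPM with Dexa (log2 -1.39). Thbd, the anticoagulant receptor thrombomodulin, went from 79.4 ± 2.21 to 37.2 ± 1.38 CPM (SD, n = 3, log2 -1.09), Timp3 fell by 0.72 and Plat, tissue plasminogen activator, by 0.65. Adamts1, a versican-cleaving protease gene, was at 653, 634 and 664 CPM without and 1556, 1596 and 1556 CPM with Dexa (log2 1.27).

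Contractile genes and targets of SRF and YAP were called in 56.7% of members, against 23.7% of all genes, and 1 member changed by over 2-fold. Of 30 members, all tested, 12 were lower, 5 higher and 13 not called, with a median log2 change of -0.08. That member was Ctgf, a matricellular growth factor gene and classical YAP target, at 190.0, 189 and 180.3 CPM without Dexa and 911, 941 and 929 CPM with it (log2 2.31, edgeR adjusted p = 2.62e-28). Of other YAP targets Ankrd1 fell by 0.75 and Cyr61 was not called (-0.01). Acta2, smooth muscle actin, was at 1956 ± 16.2 CPM without and 1882 ± 3.56 CPM with Dexa (SD, n = 3) and was not called (log2 -0.06, adjusted p = 0.13).

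Growth factor signalling changed in both directions, and 65.5% of tested members were called, against 23.7% of all genes. Of 59 members 55 were tested, 21 were lower, 15 higher and 19 not called, with a median log2 change of -0.02. Bmp2 was at 9.58, 8.24 and 8.95 CPM without and 3.24, 3.86 and 3.37 CPM with Dexa (log2 -1.35), and Grem1, a secreted antagonist of bone morphogenetic proteins, at 238, 250.1 and 253 against 99.5, 103 and 108 CPM (log2 -1.25). Fst, which encodes the activin antagonist follistatin, rose from 15.7 ± 0.763 to 39.5 ± 1.93 CPM (SD, n = 3, log2 1.33). Of the platelet-derived growth factor receptors Pdgfra rose by 1.03 and Pdgfrb fell by 0.62. Transforming growth factor ligands fell, Tgfb2 by 0.54, Tgfb3 by 0.52 and Tgfb1 by 0.23, and the accessory receptor gene Tgfbr3 rose by 0.98. Igf2 was among the called higher members but overlapped between groups, at 0.186 to 0.322 CPM without Dexa and 2.06, 0.231 and 0.392 CPM with it, the highest value being in the library high in squamous markers.

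Cell cycle, sterol and stress genes were called in 27.5%, 36% and 47.8% of members, against 23.7% of all genes. Of 51 cell cycle genes, all tested, 7 were higher, 7 lower and 37 not called (median log2 -0.05). Cdkn1a, the cyclin-dependent kinase inhibitor p21, was at 49.9, 52.0 and 49.2 CPM without and 113, 105 and 110.4 CPM with Dexa (log2 1.12), whereas the inhibitor Cdkn2b and the cyclin gene Ccnd2 both fell by 0.48. The proliferation markers Mki67 and Top2a were not called (both -0.07). Of 25 sterol and fatty acid synthesis genes, all tested, 8 were higher, 1 lower and 16 not called (median 0.06), with Scd2, a fatty acid desaturase gene, at 2988 ± 22.1 and 3522 ± 39.8 CPM (SD, n = 3, log2 0.24). Of 23 unfolded protein and ATF4 stress genes, all tested, 5 were higher, 6 lower and 12 not called (median -0.03). Among these Herpud1, a membrane protein of the endoplasmic reticulum, rose by 0.37 and Ddit3, the stress factor CHOP, fell by 0.41.

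**Figure D3:**
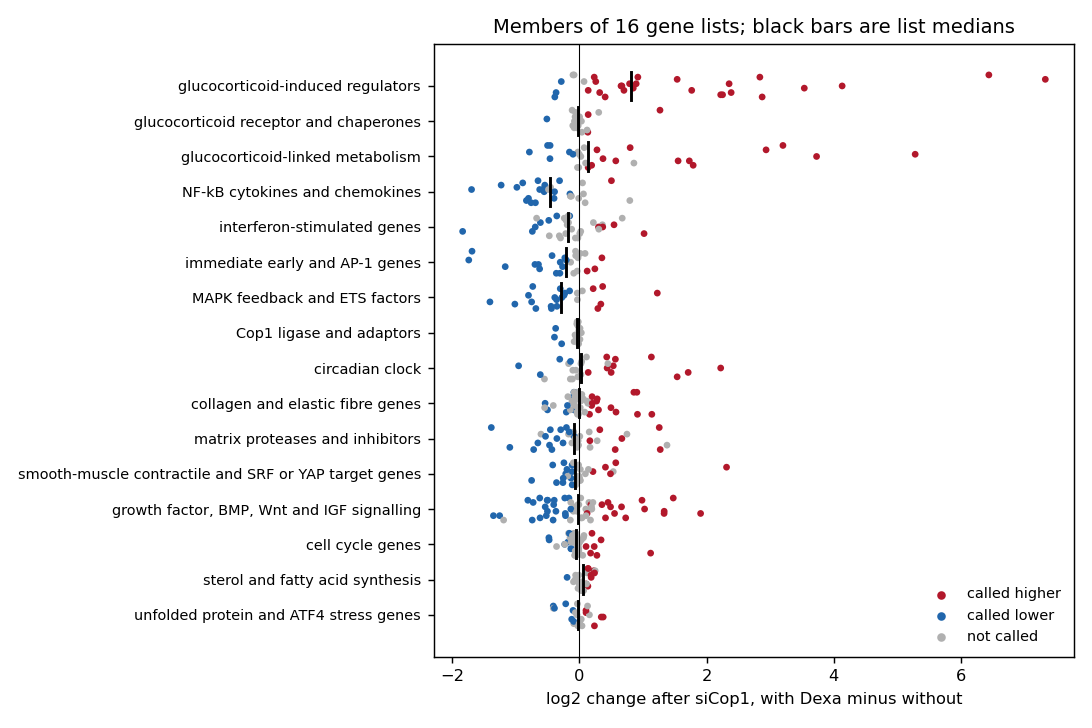
Log2 change with Dexa after siCop1 of every tested member of the 16 gene lists (x axis), 1 row a list, red for called higher, blue for called lower and grey for not called, with the list median as a black bar. Glucocorticoid-induced regulators lie furthest to the right (median 0.82) and NF-kB cytokines and chemokines furthest to the left (-0.47), and the ligase, collagen and cell cycle lists centre near 0.

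The response after siCop1 was set against that with siCTRL in DMSO, where 3957 of 14772 genes (26.8%) were called. Over all genes the log2 changes of the 2 responses had a Pearson r of 0.719 and a Spearman rho of 0.598, a description across genes, which are not independent replicates. Called in both were 2710 genes, 77.5% of the siCop1 calls and 68.5% of the siCTRL calls, and 2707 of them had the same sign. Genes at least 2-fold higher after siCop1 (328) had a median log2 change of 1.62 there and 1.45 with siCTRL. The 80 genes at least 2-fold lower had medians of -1.29 and -1.15. Chosen by the siCTRL response instead, the 319 genes at least 2-fold higher (2.16%) had medians of 1.56 with siCTRL and 1.47 after siCop1, and the 106 at least 2-fold lower (0.718%) had medians of -1.37 and -0.90. Each choice favours the response it was made on, so these medians are descriptions.

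Whether the response differed between the siRNAs was tested with the siRNA by Dexa term, the log2 change after siCop1 minus that with siCTRL. It was called for 99 of 14772 genes (0.67%), 43 positive (0.291%) and 56 negative (0.379%), and 1123 genes had an unadjusted p under 0.05. Of the 99, 43 rose with both siRNAs and rose less after siCop1, and 10 rose more. Another 21 fell with both and fell less after siCop1, and 1 fell more. Of the rest, 13 were called in the siCTRL response alone, 8 in the siCop1 response alone and 3 were called in both with opposite signs. Leaving out single libraries gave 71 to 107 called terms. The positive terms were the less stable: 24 were called without siCTRL DMSO replicate 2, 25 without siCTRL DMSO replicate 3 and 28 without siCop1 DMSO Dexa replicate 1. Genes with at least 2-fold terms were 6 (0.0406%), 4 positive (0.0271%) and 2 negative (0.0135%), namely Foxa1, Nptx1, Dkk2 and Olfml2a (1.68, under 1 CPM on average) with positive and Tmod1 and 1810011O10Rik with negative terms. Olfml2a and 1810011O10Rik are named after their values were seen.

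**Figure D4:**
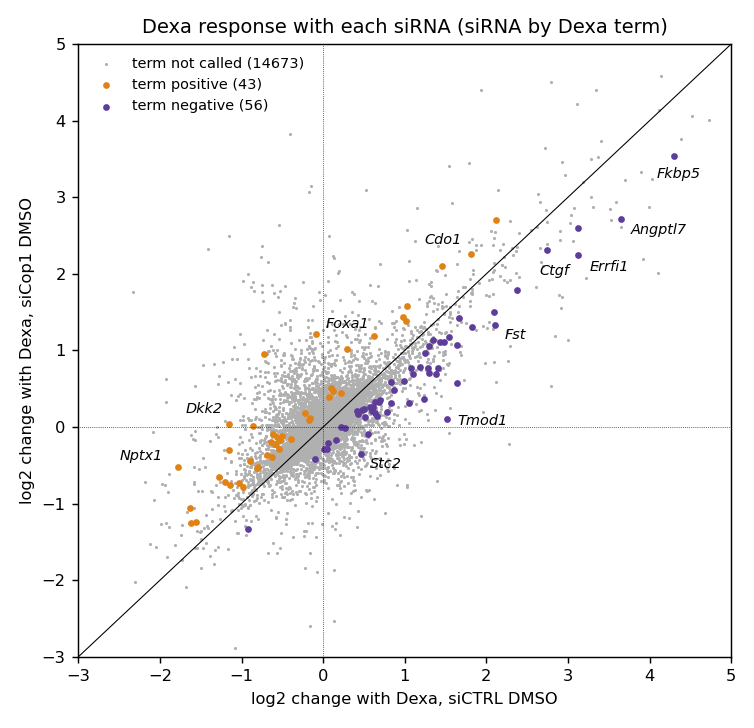
Log2 change with Dexa in siCTRL DMSO (x axis) against siCop1 DMSO (y axis) for the genes tested, with the diagonal of equal change; both axes run from -3 to 5, and 16 genes lie outside them, 0 of which had a called term. Orange marks the 43 genes with a positive and violet the 56 with a negative siRNA by Dexa term; most violet genes lie right of 0 and below the diagonal, having risen less after siCop1.

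Among the induced genes with a smaller rise after siCop1, Fkbp5 and Errfi1 had higher levels without Dexa. Fkbp5 was at 36.4 ± 0.969 CPM with siCTRL and 50.8 ± 1.29 CPM after siCop1 without Dexa, and at 719 ± 7.13 and 589.8 ± 10.4 CPM with it (SD, n = 3 each). Its log2 change was 4.30 with siCTRL and 3.54 after siCop1, a term of -0.76 (SE 0.0480, edgeR adjusted p = 2.06e-11). Errfi1 reached similar levels with Dexa, 247 ± 4.92 CPM with siCTRL and 244 ± 7.40 CPM after siCop1 (SD, n = 3). Without Dexa it was at 28.2 ± 0.720 and 51.2 ± 0.789 CPM, and the term was -0.88 (adjusted p = 2.28e-11). Angptl7, a secreted angiopoietin-like protein gene, was higher after siCop1 in both settings, at 24.5 ± 1.14 against 5.56 ± 0.254 CPM without Dexa and 161 ± 7.37 against 70.0 ± 7.67 CPM with it (SD, n = 3), a term of -0.94. Other members of the regulator group with negative terms were Rhob (-0.32) and Ddit4 (-0.26), and Glul had a term of -0.58 in the metabolism group. The remaining 26 of the 30 regulators had no called term, among them Per1 (0.00) and Zbtb16 (0.02).

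Several growth factor genes had a smaller decrease after siCop1 than with siCTRL, or none called. Dkk2, a modulator of Wnt signalling, was at 49.7, 51.8 and 53.3 CPM without and 22.8, 23.8 and 22.8 CPM with Dexa in siCTRL, whereas after siCop1 it was at 93.4, 88.8 and 98.1 CPM without and 93.7, 96.8 and 97.9 CPM with Dexa. After siCop1 the groups overlapped, and the term was 1.2 (SE 0.0790, edgeR adjusted p = 2.28e-11). Fgf10, a fibroblast growth factor gene, changed by -0.62 with siCTRL and -0.10 after siCop1 (term 0.52), and Wnt5a by -0.57 and -0.14 (term 0.43). Inhbb (-0.69 and -0.37, term 0.32) and Grem1 (-1.62 and -1.25, term 0.37) fell with both siRNAs. Fst went the other way as the member with a negative term (-0.78), rising to 55.3 ± 1.49 CPM with siCTRL and 39.5 ± 1.93 CPM after siCop1 (SD, n = 3). In all, 6 of 55 tested members of this list had a called term, against 0.67% of all genes.

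Etv4 and Etv5 also fell less after siCop1. Etv5 was at 26.4 ± 1.07 CPM with siCTRL and 17.1 ± 0.627 CPM after siCop1 without Dexa, and at 12 ± 0.409 and 10.2 ± 0.738 CPM with it (SD, n = 3 each). Its term was 0.39 (edgeR adjusted p = 0.0241), and that of Etv4 was 0.36 (adjusted p = 0.0176). The cytokine and chemokine genes had median log2 changes of -0.37 with siCTRL and -0.47 after siCop1, and the term of Ptgs2 was -0.35 (adjusted p = 0.0982). Over the alternative fits the siCop1 median ran from -0.52 to -0.23, a range that holds the siCTRL median. Of the 28 tested members 0 had a called term. Nfkbia and Dusp1 had terms of -0.23 and -0.27 that missed the threshold (adjusted p = 0.0973 and 0.078).

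Among other called terms, Stc2 went in opposite directions with the siRNAs, and Foxa1 rose after siCop1 and was level with siCTRL. Nptx1, Tll1 and Cdo1 changed in the same direction with both siRNAs by different amounts. Foxa1, a pioneer transcription factor gene, was at 4.11, 3.45 and 4.21 CPM without and 3.93, 3.46 and 3.71 CPM with Dexa in siCTRL. After siCop1 it went from 1.64, 2.25 and 2.02 CPM to 4.57, 4.63 and 4.55 CPM (term 1.30, SE 0.257, edgeR adjusted p = 0.00728). Stc2, a stanniocalcin gene like Stc1, rose by 0.47 with siCTRL and fell by 0.35 after siCop1 (term -0.81, adjusted p = 4.17e-08). Nptx1, a secreted pentraxin gene, fell from 11.1 ± 0.258 to 3.22 ± 0.216 CPM with siCTRL and from 36.6 ± 1.09 to 25.5 ± 2.30 CPM after siCop1 (SD, n = 3, term 1.26). Tll1, a metalloprotease gene, rose by 0.29 with siCTRL and by 1.01 after siCop1 (term 0.73). Cdo1, the cysteine dioxygenase gene, rose by 1.81 and 2.25 (term 0.44).

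The remaining named terms were less secure. Tmod1, which caps actin filaments, had a term of -1.41 (edgeR adjusted p = 0.0262) and lost the call when siCTRL DMSO replicate 2 or 3, siCop1 DMSO replicate 2, or siCop1 DMSO Dexa replicate 1 or 3 was left out (adjusted p up to 0.129). Rprm, a cell cycle regulator gene, had a term of -0.87 (0.0254), lost without siCTRL DMSO replicate 2, siCTRL DMSO Dexa replicate 1, siCop1 DMSO replicate 1 or 3, or siCop1 DMSO Dexa replicate 2 or 3 (up to 0.122). The term of Clic5, an intracellular chloride channel gene, was 0.86 (0.019), lost without siCTRL DMSO replicate 3, siCTRL DMSO Dexa replicate 1 or 3, siCop1 DMSO replicate 1, or siCop1 DMSO Dexa replicate 1 or 3 (up to 0.122). That of Plekha6 was 0.88 (0.0433) and was lost without any 1 of 11 of the 12 libraries, siCop1 DMSO replicate 2 being the exception, and with the replicate number as a block (0.0595). Sned1, a matrix protein gene with a term of 0.27, lost the call without any 1 of 10 of the 12 libraries (adjusted p up to 0.165), with the block (0.0612) and with RLE scaling (0.0503). The term of Nfil3 (-0.22) was lost without any 1 of 7 of the 12 libraries (up to 0.0958) and without the filter on low counts (0.0592).

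**Figure D5:**
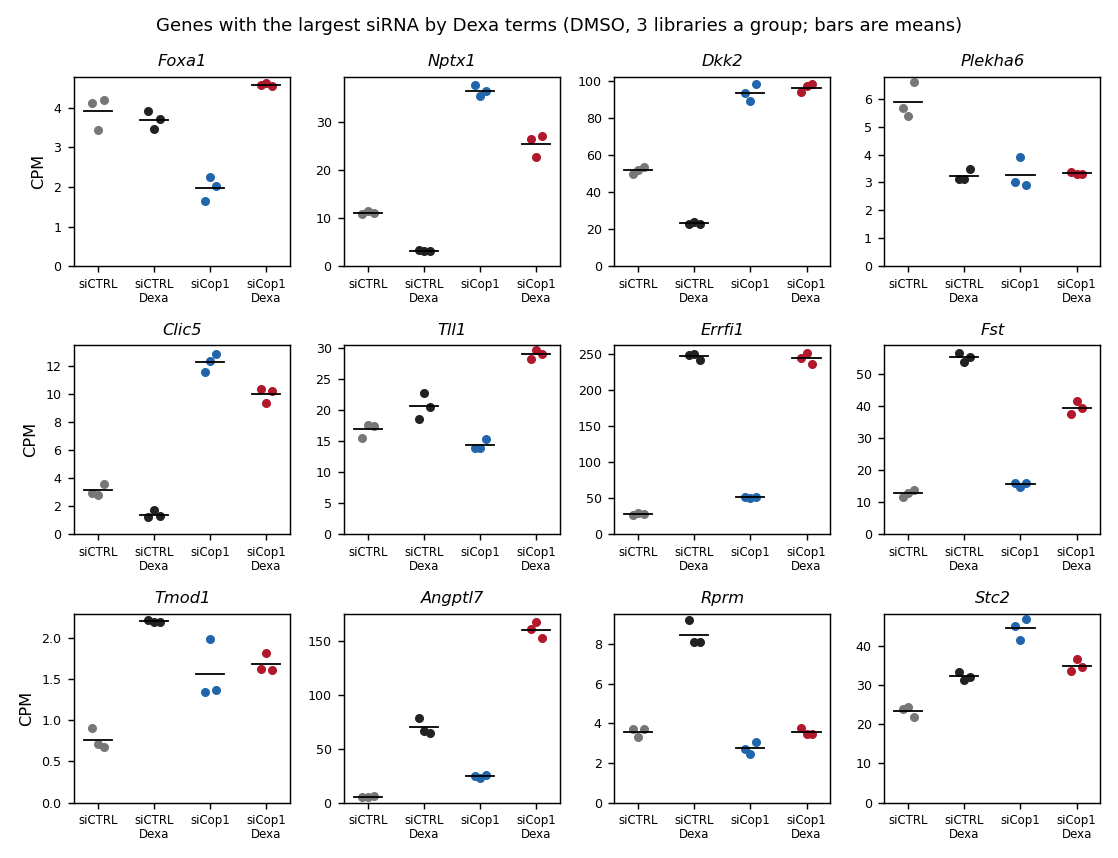
CPM in single libraries (points) and means (bars) of the 12 genes with the largest siRNA by Dexa terms under the naming rule, in siCTRL and siCop1 DMSO without and with Dexa, with each y axis starting at 0. Errfi1 reaches about the same level with Dexa in both, Dkk2 falls with Dexa in siCTRL and not after siCop1, and Foxa1 rises with Dexa after siCop1 and is level in siCTRL.

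With KL001, a compound that stabilises cryptochromes, in place of DMSO, 3620 of 14772 genes (24.5%) were called in the Dexa response after siCop1. The log2 changes with DMSO and with KL001 had a Pearson r of 0.781 across genes. Called in both were 2706 genes, 77.4% of the DMSO calls and 74.8% of the KL001 calls, and 2705 of them had the same sign. The KL001 by Dexa term was called for 10 genes (0.0677%), 7 positive (0.0474%) and 3 negative (0.0203%), and 670 genes had an unadjusted p under 0.05. Ctgf had a term of 0.42 (SE 0.0503, edgeR adjusted p = 5.22e-05), with log2 changes of 2.31 in DMSO and 2.74 in KL001, and kept its call in all alternatives tried. Matrix and clock genes among the others were Postn (0.34), Adamts1 (0.31) and Nfil3 (0.28). These and Cdo1, Fzd4, Gas1, Sned1 and Tmem158 each lost the call when single libraries were left out in turn, between 6 and 12 of the 12, and the count of called terms was then 1 to 7. Per1 and Fkbp5 had KL001 terms of 0.21 and 0.15 that were not called (adjusted p = 0.186 and 0.682).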

How the data were processed

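mRNA of mouse embryonic fibroblasts was sequenced as single reads from stranded TruSeq libraries on a HiSeq instrument, per the labels' protocols. The values used are raw counts per gene as deposited by the authors. The submitters' processing notes name bcl2fastq 1.8.4, STAR 2.4.5a, featureCounts from Subread 1.4.6-p3, Picard 1.126, DESeq2 and GRCm38/mm10, without stating how each was set. How strand, shared reads and overlapping genes were counted is not given in the sources used here. A deposited table of normalized values was not used, and 0 columns of the count table were left unused. Samples were grouped by their labels.

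From the counts, edgeR 4.0.16 (R 4.3.3, limma 3.58.1) was fitted to all 24 libraries with 1 mean for each of 8 groups, TMM scaling and the quasi-likelihood test. Filtering by filterByExpr (minimum count 10, minimum total 15) left 14772 of 47480 genes. Calls used a Benjamini-Hochberg adjusted p below 0.05 over all genes tested. The siRNA by Dexa and KL001 by Dexa terms are contrasts of the same fit. CPM are counts scaled to a common TMM-adjusted library total, standard errors come from the log2 change and its F value, and folds against 0 counts use a floor of 3 counts. Floors cover counting error only.

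Genes were named by rule: Rfwd2, up to 4 called members of each list with the largest change (8 for the regulators), the 8 largest changes in each direction without overlap between groups, and the 6 largest terms of each sign, all with a mean of at least 1 CPM. Predicted genes (Gm and Rik symbols) and pseudogenes were skipped among the largest changes and terms. Any other gene was picked with its values known. The members and lists were chosen with earlier results of these data known. Counts for 14772 genes were simulated from the fitted means and spreads, with 50 genes changed at each fold. The fit recovered 64%, 84%, 74% and 96% of those changed 1.2-, 1.5-, 2- and 4-fold, with 7 false calls. Far fewer genes were changed there than the 23.7% called after siCop1, and no replicate effect was simulated. These shares thus check the fit and do not give its recovery or false calls in the data. Same-numbered libraries with and without Dexa had correlations of 0.13, 0.06 and -0.02 in their deviations from the group means after siCop1, so the numbers were not taken as pairs there. The siCTRL DMSO libraries had 0.61, 0.28 and 0.34, all above 0.1, but replicate 3 without Dexa against replicate 2 with it had 0.39. The other pairs of unlike number had -0.51, -0.36, -0.29, 0.13 and -0.51. Replicate 1 also stood apart in chi-square per degree of freedom. Without Dexa it had 4.96 and 5.51 against replicates 2 and 3, which had 1.78 between them. With Dexa these values were 5.95, 5.21 and 1.96. Whether the numbers mark pairs there is thus unclear, and the blocked value is given where it changes a named call. The block fits the same effect of a replicate number in all groups. It therefore cannot remove a pairing limited to the siCTRL libraries. Results for 1 gene are not reported here. Alternatives were RLE scaling, no filter, a minimum mean of 1 CPM, a replicate block, a fit of only the groups compared, DESeq2 1.42.0, and leaving out each library in turn.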

Additional observations from a re-analysis of the deposited data

Results flagged for a closer look

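The Dexa response differed between siCop1 and siCTRL for 18 named genes by the tested siRNA by Dexa term, the log2 change after siCop1 minus that with siCTRL (edgeR, adjusted p below 0.05, 3 libraries a group). Among induced regulators and clock genes the term was -0.76 for Fkbp5, -0.88 for Errfi1 and -0.22 for Nfil3. Among matrix and growth factor genes it was -0.42 for Ctgf, -0.78 for Fst, 0.37 for Grem1, 1.2 for Dkk2 and 0.73 for Tll1. The other positive terms were 1.30 for Foxa1, 1.26 for Nptx1, 0.88 for Plekha6, 0.86 for Clic5, 0.44 for Cdo1 and 0.27 for Sned1. The other negative terms were -1.41 for Tmod1, -0.94 for Angptl7, -0.87 for Rprm and -0.81 for Stc2. The calls of Nfil3, Sned1, Plekha6, Clic5, Rprm and Tmod1 were lost when some single libraries were left out.

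After siCop1 the Dexa response differed between KL001 and DMSO for 9 named genes by the tested KL001 by Dexa term. It was positive for Fzd4 (0.45), Ctgf (0.42), Cdo1 (0.41), Postn (0.34), Adamts1 (0.31) and Nfil3 (0.28). It was negative for Tmem158 (-0.65), Gas1 (-0.35) and Sned1 (-0.32). All of these calls but that of Ctgf were lost when some single libraries were left out. Both terms use the siCop1 DMSO libraries, so their values for Ctgf, Nfil3, Cdo1 and Sned1 share samples.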

How the results depend on the processing

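The Dexa response after siCop1 gave 3177 to 4578 called genes over the alternatives that kept all libraries (3496 as reported), and 2962 to 3051 when single libraries were left out, with 1509 to 1605 higher, 1436 to 1510 lower and 380 to 408 changed at least 2-fold. A minimum mean of 1 CPM, which left 12462 genes, gave 252 changes of at least 2-fold in place of 408. The siCTRL response gave 3373 to 3990 calls without single libraries. The siRNA by Dexa term was called for 230 genes without the filter, 116 positive and 114 negative. Leaving out single libraries gave 71 to 107 called terms, 24 to 51 positive and 40 to 71 negative. The lowest positive counts were 24 without siCTRL DMSO replicate 2, 25 without siCTRL DMSO replicate 3 and 28 without siCop1 DMSO Dexa replicate 1. The KL001 by Dexa term was called for 5 genes with RLE scaling, 43 without the filter, 24 in a fit of only the groups compared, and 1 to 7 without single libraries. The causes were not tested.

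The replicate number did not pair the siCop1 DMSO libraries with and without Dexa. For the siCTRL DMSO libraries, which enter the siRNA by Dexa term, pairing by number was unclear. Same-numbered libraries correlated there, but so did replicate 3 without Dexa and replicate 2 with it (0.39). Replicate 1 stood apart from replicates 2 and 3 both without and with Dexa, and its part in the siRNA by Dexa term was not tested beyond leaving it out. With a replicate block the Dexa response after siCop1 had 3470 calls, 3413 of them shared with the fit without it, the siCTRL response 3920, the siRNA by Dexa term 97 (94 shared) and the KL001 by Dexa term 5. The block fits the same effect of a replicate number in all groups, so these counts do not show what a pairing limited to siCTRL would change. Of the named genes the block ended the siRNA by Dexa call of Plekha6 (edgeR adjusted p = 0.0595) and Sned1 (0.0612). It also ended the KL001 by Dexa call of Postn (0.0636), Adamts1 (0.0711), Fzd4 (0.0673), Tmem158 (0.0636) and Sned1 (0.0979). No tested result reversed. For named genes the Dexa response kept its side of the threshold in 1070 comparisons, lost the call in 7 (Xaf1 and Clic5) and gained it in 3 (Rprm and Sned1). The siRNA by Dexa term lost the call in 49 comparisons over 6 genes (Clic5, Nfil3, Plekha6, Rprm, Sned1 and Tmod1). The KL001 by Dexa term lost it in 93 comparisons over 8 genes and kept it in 69. The list medians moved by at least their SD over the 3 Dexa libraries in 46 comparisons, over 14 lists, and by less in 146. Of the list medians, that of the unfolded protein and ATF4 genes changed sign, from -0.03 to 0.01 without siCop1 DMSO Dexa replicate 2. The squamous markers without siCop1 DMSO Dexa replicate 1 were an alternative chosen after seeing the data. With 3 libraries a group and low counts, changes of genes under 1 CPM were the least precise.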

Other observations

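Some genes outside the lists, chosen after their values were seen, changed strongly after siCop1. Il1rn, the secreted antagonist of the interleukin 1 receptor, was at 9.17, 8.05 and 8.71 CPM without Dexa and 99.3, 104 and 95.2 CPM with it (log2 3.53). Ace, which encodes angiotensin-converting enzyme, was at 5.83 ± 0.579 CPM without and 37.8 ± 0.459 CPM with Dexa (SD, n = 3, log2 2.70), against 14.1 ± 1.2 and 61.5 ± 2.90 CPM with siCTRL (log2 2.12). Its siRNA by Dexa term was 0.58 (edgeR adjusted p = 0.0012).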
